A study of Canis lupus familiaris with 12 samples.

Results

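The comparison described here is the diet difference in the cerebral cortex of old dogs: 3 animals on a plant-protein based diet (PPB) against 3 on an animal-protein based diet (APB). Its 6 arrays, of 12 in the series, were taken by the age and diet in their labels, and all 23836 non-control probe sets of the canine array entered the analysis. Each dog gave 1 array, so the replicates are separate animals. All 6 were female beagles with a mean age of 11.1 yr at the start and 12 yr at sampling. They ate their diet for 12 months in amounts set to hold body weight, and were sampled after an overnight fast. APB was built on poultry meal, poultry fat and rice and held 28% protein, 23% fat and 5% fibre. PPB was built on corn, soybean meal and wheat middlings, with some meat and bone meal, and held 26% protein, 11% fat and 15% fibre. PPB also had the lower energy density, 4.75 against 5.38 kcal per g, and dogs on it ate more, 237 against 166 g per day and 1123 against 893 kcal per day, as averages over both ages. Protein source, fat, fibre, digestibility and amount eaten therefore moved together and cannot be told apart. The other 6 dogs of the series, young females that began the same diets at a mean age of 8 weeks, ate freely and were sampled at 1 yr, enter as a comparison and as part of the estimate of spread.

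The brain takes up glucose, amino acids, fatty acids and ketone bodies from blood, and hormones such as insulin, leptin and glucocorticoids report the body's nutritional state to it. Cortex holds neurons, astrocytes, the oligodendrocytes that make myelin, and microglia, the resident macrophages. In aging mammals the immune part of that tissue, complement and antigen presentation among it, is known to be more active, and microglia sense bacterial and tissue signals through Toll-like receptors. Cortical genes for fuel use, amino acid handling, immune activity and myelin are among the groups described below. The gene lists were chosen with earlier results of these data known.

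Values are log2 levels, 1 unit being a 2-fold change, and differences are PPB minus APB. The defining markers of cortex were present: in each of the 6 old dogs the neuronal SNAP25 stood at 13.84 to 14.25, the astrocyte gene GLUL at 13.76 to 13.99 and the myelin gene MBP at 14.74 to 14.90. The intensity minimum of the filter, a set value and not a detection limit, was 4. No marker on the list of oligodendrocyte precursors was measured. Array medians lay between 3.39 and 3.45. The arrays of old dogs correlated with each other at r = 0.960 to 0.991 across probe sets. One array stood apart: on the first principal component of the 6, which held 48.2% of the variance, the APB dog numbered 1 lay at -39.9 and the other 5 between -11.8 and 25.7. That dog was the highest of the 6 at 28.4% of tested probe sets and the lowest at 24.3%, and the larger differences that changed by over 1.5 times without it are given both ways. The 3' to 5' difference of the actin controls, a measure of RNA integrity, was 0.85 ± 0.15 (SD, n = 3) on APB and 1.07 ± 0.09 on PPB (exact two-sided permutation p = 0.2, adjusted p = 0.6 over 3 tests; the smallest possible is 0.1). In the GAPDH controls the same measure was 0.31 ± 0.10 (SD, n = 3) on APB and 0.30 ± 0.02 on PPB. The part of RNA integrity in the differences below was not tested.

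No gene passed the test for diet in old dogs. Of 10835 tested probe sets 0 (0%) had a limma adjusted p under 0.05, and the smallest adjusted p was 0.921. At an unadjusted limma p under 0.05 stood 502 probe sets (4.63%), 193 higher (1.78%) and 309 lower (2.85%) on PPB. The labels number the dogs but do not say that the numbers pair them. Deviations of same-numbered old dogs correlated at 0.51, 0.31 and 0.16, and those of different numbers across diets at -0.43 to 0.19. In young dogs the same-numbered values were -0.37, 0.39 and -0.04. With the number as a replicate block of the old arrays, 1252 probe sets (11.6%) were at an unadjusted limma p under 0.05. Of these 0 passed, with a smallest adjusted p of 0.431. In the first fit 61.6% of the probe sets under 0.05 were lower on PPB, but with arrays centred on their medians the share was 44.2% and with the block 40.2%, so that the balance of directions turned with the scaling and with the block. The share at an unadjusted p under 0.05 was 2.11% without APB dog 1, 2.95% without PPB dog 2, 7.98% without PPB dog 1 and 8.43% without APB dog 3, and limma called 0 with any 1 dog left out. Without any intensity filter limma called 1 probe set, described further on.

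What the 6 arrays could have shown is set by the spread between dogs. The median standard error of a diet difference was 0.20 and the median size of the difference 0.15. The 95% interval reached a median of 0.43 to each side, and 0.28 to 0.75 from the 10th to the 90th percentile. For 9316 probe sets (86.0%) that interval lay within a 2-fold change in either direction. For these, a diet difference of 2-fold or more lies outside the measured interval, taken for each probe set by itself. Some narrow intervals belong to probe sets near the intensity minimum, where folds may be understated. A dim NAPG probe set, for instance, stood at 4.11 to 4.16 on all 12 arrays. Measured differences of at least 2-fold occurred at 50 probe sets, 25 in each direction, and in 10 of them the diets did not overlap. Over all tested probe sets the diets did not overlap at 1018 (9.4%), with PPB above at 341 (3.15%) and below at 677 (6.25%). The same fit compared groups of the same size for age, and there 755 probe sets (6.97%) differed between old and young dogs on APB and 758 (7%) on PPB, in limma at an adjusted p under 0.05.

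**Figure D1:**
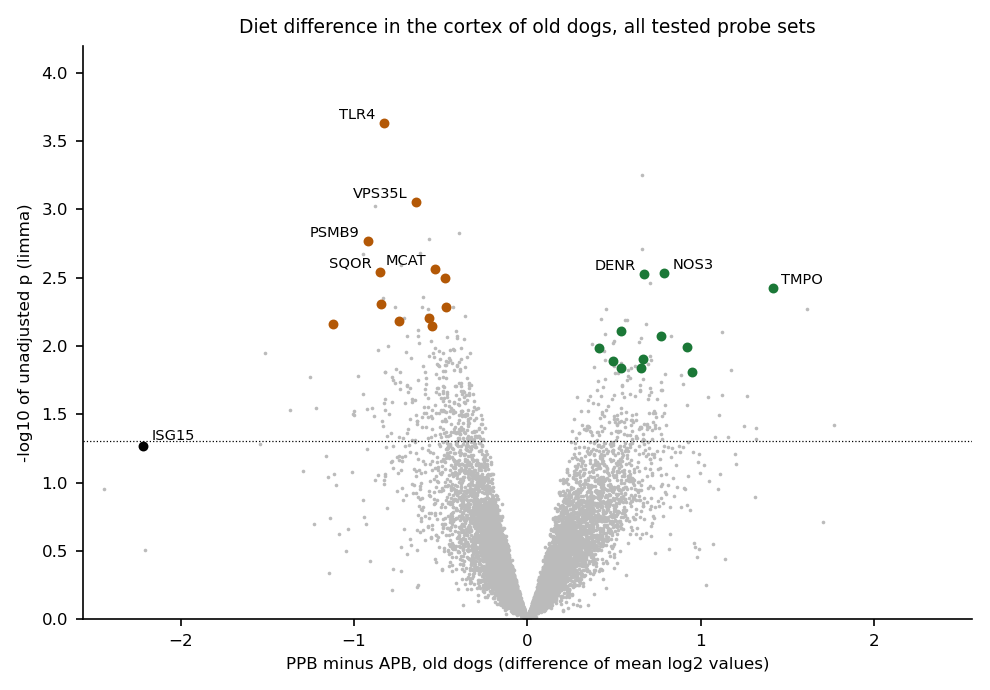
Difference between diets in old dogs (horizontal, PPB minus APB in log2 units) against the negative log10 of the unadjusted limma p (vertical) for 10835 probe sets, with the dotted line at 0.05. Orange and green points are the 12 genes lower and the 12 higher on PPB with the smallest p, and TLR4 is the highest point. ISG15, in black, has a difference of -2.21 but lies below the line.

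Genes are described by 1 probe set each, 4527 genes in all. Their median diet difference was -0.05, 2718 of them (60%) had the lower mean on PPB, 170 (3.76%) were lower and 56 (1.24%) higher at an unadjusted p under 0.05. All 3 PPB dogs lay below all 3 APB dogs at 348 genes (7.69%) and above them at 118 (2.61%), 466 (10.3%) in all. The genes that follow had the smallest p in each direction. None passed the adjusted threshold, and they are the extreme end of many comparisons.

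The lower gene with the smallest p was TLR4, the Toll-like receptor for bacterial lipopolysaccharide. It was at 5.96, 5.67 and 5.80 in APB dogs 1, 2 and 3 and at 4.85, 5.28 and 4.82 in the PPB dogs. Every PPB dog lay below every APB dog, and the means, 5.81 ± 0.15 (SD, n = 3) and 4.98 ± 0.26, were 1.77-fold apart. The difference was -0.83 ± 0.15 (SE; 95% interval -1.17 to -0.49), with a limma p of 2.33e-04 and an adjusted p of 0.921. With each old dog left out in turn it stayed between -0.98 and -0.75. In young dogs TLR4 was at 4.67 to 4.83 on APB and 4.22 to 4.52 on PPB, a difference of -0.36 that likewise kept the diets apart. PSMB9, a catalytic subunit of the immunoproteasome that cuts peptides for antigen presentation, was at 9.20, 8.54 and 8.17 on APB and 7.58, 7.75 and 7.82 on PPB. Its APB dogs spread widely, while its PPB dogs stood close together and below all of them. The difference of -0.92 ± 0.22 was -0.64 without APB dog 1. TSPO, a mitochondrial outer membrane protein that marks glial activation, differed by -0.57 ± 0.17, and UBE2A, a ubiquitin-conjugating enzyme, by -0.47 ± 0.14, both without overlap of the diets.

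SQOR, the mitochondrial enzyme that oxidises hydrogen sulphide, was at 8.37, 8.36 and 8.45 on APB and 7.48, 7.35 and 7.79 on PPB. The APB dogs agreed closely and the PPB dogs were lower by a wide margin, with a difference of -0.85 ± 0.22 and a second probe set at -0.41. MCAT, which works in mitochondrial fatty acid synthesis, was at 7.04, 6.94 and 6.91 on APB and 6.22, 6.45 and 6.61 on PPB, a difference of -0.53 ± 0.14. BOLA1, a mitochondrial protein of iron-sulphur metabolism, differed by -0.55 ± 0.17. The endosomal recycling subunit VPS35L differed by -0.64 ± 0.14, with APB dogs at 7.58 to 7.85 and PPB dogs at 7.07 to 7.15. LXN, or latexin, an inhibitor of carboxypeptidases, was at 8.07, 7.97 and 7.95 on APB and 6.72, 7.54 and 7.52 on PPB, so that PPB dog 1 set much of its difference of -0.74 ± 0.22, which was -0.47 without it. CNKSR3, a scaffold protein, differed by -0.48 ± 0.13. LOC475395, for which the reference gene table lists RNASE1 as a synonym, differed by -0.84 ± 0.24, and the unnamed locus LOC480601 by -1.12 ± 0.34, or -0.71 without APB dog 1. All 12 of these lower genes kept the diets apart, which a choice by p favours.

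Among the genes higher on PPB, NOS3, the endothelial nitric oxide synthase, was at 5.21, 5.88 and 6.04 in APB dogs and 6.20, 6.69 and 6.62 in PPB dogs. APB dog 1 was the lowest and all PPB dogs lay above all APB dogs, with a difference of 0.79 ± 0.21 (limma adjusted p = 0.921). DENR, a factor in ribosome recycling and re-initiation of translation, was at 7.58, 7.92 and 8.22 on APB and 8.47, 8.50 and 8.78 on PPB, a difference of 0.68 ± 0.18, but its dimmer probe set gave 0.03. GTF2F2, a subunit of the general transcription factor TFIIF, was at 4.83, 4.70 and 4.80 on APB and 5.74, 5.51 and 5.40 on PPB. Here the groups were tight and apart, by 0.77 ± 0.24, although the young dogs of both diets ran from 4.64 to 5.75. CALML4, a calmodulin-like protein, was at 9.23, 9.27 and 9.23 in the PPB dogs and 8.30 to 8.95 on APB.

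ATRX, a chromatin remodeller, was at 6.45, 6.63 and 7.12 on APB and 7.13, 8.40 and 7.44 on PPB. Its difference of 0.92 ± 0.30 was 0.55 without PPB dog 2, and a second probe set gave 0.72. The zinc finger protein ZBTB1 differed by 0.67 ± 0.22 and the chromatin reader ZMYND8 by 0.49 ± 0.17, the latter with 2 of its 4 probe sets higher on PPB. TMPO, a protein of the nuclear lamina, had the largest difference of the 24, 1.42 ± 0.39, but stood near the intensity minimum. It was at 3.0, 4.64 and 3.19 on APB and 4.34, 5.37 and 5.37 on PPB, with overlap of the diets. The microtubule plus-end protein CLIP1 differed by 0.65 ± 0.23 with all 3 probe sets higher, the latrophilin ADGRL2, a synaptic adhesion receptor, by 0.54 ± 0.19, and KLHL5, of the kelch family, by 0.42 ± 0.13. The fibrillar collagen COL5A1 differed by 0.95 ± 0.33 with overlap. In 8 of the 20 probe sets with the smallest p no single gene symbol was attached, so part of the front of the ranking stays unnamed.

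**Figure D2:**
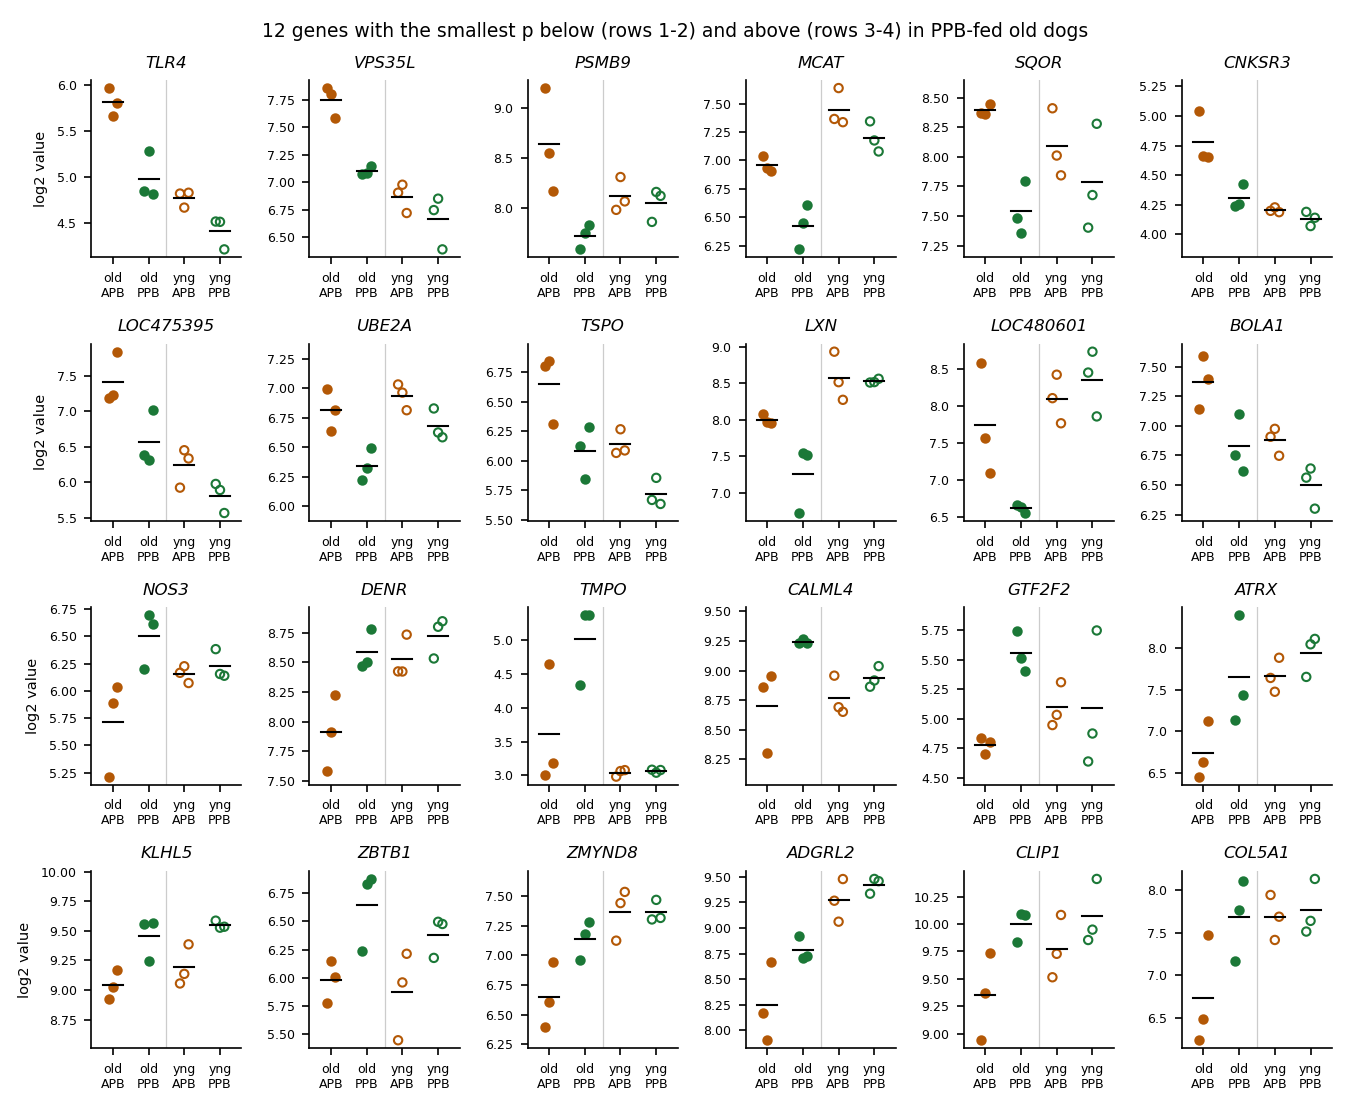
Log2 value (vertical) in each dog for the 12 genes lower (upper rows) and the 12 higher (lower rows) on PPB with the smallest p; orange is APB, green is PPB, filled circles are old and open circles young dogs, and bars are means of 3 dogs. The old groups are apart in every panel except TMPO and COL5A1, and each panel has its own vertical scale.

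Of the gene lists, that of complement and antigen presentation held the most members lower at an unadjusted p under 0.05. Of 21 measured, 19 had the lower PPB mean, 5 of them at that level, and in 4 the diets did not overlap. Over all genes 60% had the lower PPB mean, 3.76% were lower at that level and 7.69% had PPB entirely below APB. The list median was -0.44, against -0.05 over all genes, and 0 passed the adjusted test. TAP1, which carries peptides into the endoplasmic reticulum, was at 7.89, 6.61 and 6.89 on APB and 6.55, 6.36 and 6.42 on PPB, a difference of -0.69 ± 0.26. PSMB8, another immunoproteasome subunit, was at 6.56, 5.39 and 5.30 on APB and 4.87, 4.67 and 4.71 on PPB, a difference of -1.0 ± 0.41. Both genes were far higher in APB dog 1 than in any other, with the remaining APB dogs still above the PPB dogs. PSMB8, TAP1 and PSMB9 are neighbours in the reference gene table, with TAP2 at their side, and TAP2 differed by -0.12 with overlap, or by 0.15 without APB dog 1. The complement component C1QA was at 9.90, 8.72 and 8.82 on APB and 8.69, 8.32 and 8.23 on PPB, a difference of -0.74 ± 0.27. B2M, the light chain of class I molecules, was at 13.56, 12.50 and 12.36 on APB and 12.13, 11.99 and 12.40 on PPB, and DLA88, a class I heavy chain whose probes could also bind its close relatives, at 13.04, 11.67 and 11.52 against 11.24, 10.92 and 11.75. Their differences of -0.63 ± 0.27 and -0.77 ± 0.36 came with overlap.

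APB dog 1 weighed heavily in that list. It was the highest of the 6 old dogs at 15 of the 21 genes, and PPB dog 2 was the lowest at 17; over all genes those dogs were highest and lowest at 33.5% and 23.7%. Without APB dog 1 the median of the list was -0.18, and without PPB dog 2 it was -0.21. Without APB dog 1 the differences became -0.31 for TAP1, -0.36 for C1QA, -0.60 for PSMB8, -0.26 for B2M and -0.29 for DLA88. With any of the other 4 old dogs left out the median lay further from 0, down to -0.67 without PPB dog 3. HLA-DRB1, a class II chain, was lowest in PPB dog 2, at 10.25, 10.02 and 10.02 on APB and 9.74, 9.02 and 10.24 on PPB. In young dogs the median of the list was -0.11.

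The inflammation and interferon list showed the same dog more sharply. All 9 measured members had the lower PPB mean, against 60% of all genes, with a median of -0.41. TLR4, already described above, was the 1 member lower at an unadjusted limma p under 0.05, as were 3.76% of all genes. ISG15, a ubiquitin-like protein made in response to interferon, was at 9.58 in APB dog 1, 4.72 and 4.52 in the other APB dogs and 4.56, 3.66 and 3.96 on PPB. Young dogs had it at 2.94 to 3.62, below the intensity minimum of the filter. The difference of -2.21 ± 1.03, the largest of any gene, was -0.56 without APB dog 1. IRF9, a transcription factor of the interferon response, was at 9.07 in the same dog and 7.28 to 7.56 in the other 5, and its difference was -0.66, or -0.14 without that dog. The antiviral GTPase MX1 was at 9.81 in it and 8.46 to 8.85 in the others, and the chemokine CCL2 at 6.24 against 4.30 to 4.85; without that dog MX1 and CCL2 differed by 0.0036 and 0.038. Without that dog 5 of the 9 members were lower on PPB and the list median was -0.05. STAT3, a transcription factor of cytokine signalling, had 8.28 in that dog and differed by -0.41 ± 0.20, or by -0.14 without it.

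Microglial markers were low on PPB by a median of -0.48, 7 of 8 with the lower PPB mean and 2 at an unadjusted limma p under 0.05. Over all genes 60% had the lower PPB mean and 3.76% were lower at that level. C1QA, described above with complement, is also on this list, so the 2 lists are not separate observations. In whole tissue, fewer cells of a type and less RNA per cell cannot be told apart. LAPTM5, a lysosomal protein of haematopoietic cells, was at 8.04, 8.00 and 7.84 on APB and 7.61, 6.65 and 7.79 on PPB, a difference of -0.61 ± 0.26 without overlap. AIF1, the microglial marker also known as Iba1, differed by -0.43 ± 0.20, and the receptor CSF1R by -0.44 ± 0.25 with overlap. Without PPB dog 2 these differences were -0.26, -0.28 and -0.20, and without APB dog 1 that of CSF1R was -0.23. LYZ, lysozyme, was the exception at 0.28 ± 0.23, or 0.19 without APB dog 1. APB dog 1 was the highest at 7 of the 8 genes and PPB dog 2 the lowest at 5, and the median was -0.26 without the first and -0.23 without the second. In young dogs the median was -0.38.

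Myelin genes were lower on PPB in 8 of 8 measured members, with a median of -0.44, 3 at an unadjusted limma p under 0.05 and 4 without overlap. Over all genes 60% had the lower PPB mean and 3.76% were lower at that level. At 7.69% of all genes PPB lay entirely below APB. GJB1, the gap junction protein connexin 32, was at 7.75, 7.98 and 6.69 on APB and 6.53, 6.75 and 6.57 on PPB, a difference of -0.86 ± 0.28 that overlapped through APB dog 3. ENPP2, or autotaxin, was at 11.52, 11.63 and 11.60 on APB and 11.01, 10.84 and 11.33 on PPB, a difference of -0.52 ± 0.18, and its second probe set gave -0.49. MAG, the myelin-associated glycoprotein, was at 11.03, 10.70 and 10.65 on APB and 10.45, 9.95 and 10.54 on PPB, a difference of -0.48 ± 0.19. The small heat shock protein CRYAB differed by -0.44 ± 0.22 without overlap, but its dimmer probe sets gave -0.55 and 0.32. Without PPB dog 2 MAG differed by -0.30 and CRYAB by -0.29. MBP, near the top of the array's range, differed by -0.10 ± 0.19. Unlike the immune lists, this one did not rest on APB dog 1: the median lay between -0.56 (without PPB dog 3) and -0.26 (without PPB dog 2) with each old dog left out, and all 8 members stayed lower each time. The young dogs, different animals, had a median of -0.58, with GJB1 at -0.94, MAG at -0.68 and ENPP2 at -0.53. Whether the pieces of cortex held equal amounts of white matter was not tested.

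**Figure D3:**
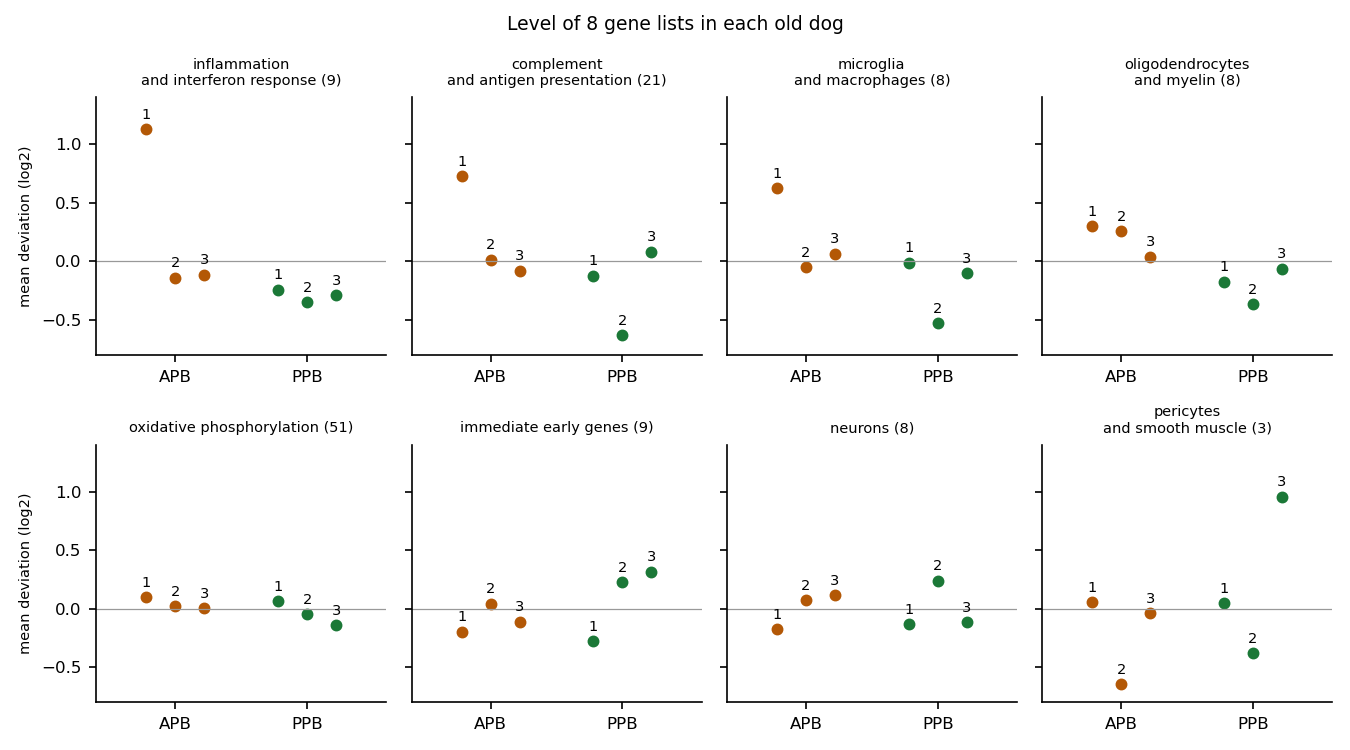
Mean deviation of the members of 8 gene lists from their mean over the 6 old dogs (vertical, log2 units), by diet, with the dog's number beside each point and the number of measured genes in the title. APB dog 1 stands at 1.13 for the interferon list and 0.73 for complement and antigen presentation, PPB dog 2 is lowest in both microglia and myelin, and PPB dog 3 reaches 0.96 for the 3 pericyte and smooth muscle genes.

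The 8 neuronal markers had a median of -0.01, 5 lower and 3 higher and none at an unadjusted p under 0.05, and with 1 dog left out the median lay between -0.07 and 0.12. PPB dog 2 was the highest at 6 of the 8. The 7 interneuron markers had a median of 0.09, which was -0.17 without PPB dog 1. Astrocyte markers had a median of -0.05, with S100B, a calcium-binding protein, at 13.56, 13.27 and 13.06 on APB and 12.94, 12.95 and 12.99 on PPB, a difference of -0.34 ± 0.14 without overlap, or -0.20 without APB dog 1. The contractile genes ACTA2, MYH11 and TAGLN of pericytes and smooth muscle were higher by 0.50 ± 0.36, 0.46 ± 0.37 and 0.30 ± 0.51. PPB dog 3 was the highest at all 3 of them, and without it their median was 0.06 and they differed by 0.16, 0.06 and -0.089. Of 7 endothelial markers 5 had the lower PPB mean, as 60% of all genes did, with a median of -0.19 that was 0.02 without APB dog 1. VWF was the one at an unadjusted limma p under 0.05, where 1.24% of all genes were higher. VWF, a clotting protein of endothelial cells, was at 6.78, 6.94 and 7.21 on APB and 7.69, 6.97 and 7.82 on PPB, a difference of 0.51 ± 0.22, or 0.78 without PPB dog 2. The haemoglobin-related locus LOC609402, the only measured gene of the blood list, was at 12.30, 10.38 and 10.66 on APB and 13.34, 9.87 and 11.03 on PPB, so that its level differed more between dogs than between diets, and its difference of 0.30 was -0.66 without PPB dog 1. It was high in both dogs numbered 1, and its part in the immune values was not tested.

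In the lists of fuel use most members had the lower PPB mean, as 60% of all genes did. Of 51 oxidative phosphorylation genes 40 had the lower PPB mean, but the median was -0.09 and none of them was at an unadjusted p under 0.05. PPB dog 3 was the lowest at 32 of the 51, and without it the median was -0.03, while without PPB dog 1 it was -0.14. The glycolysis list had 18 of 22 lower with a median of -0.11, or -0.04 without PPB dog 3. HK1, hexokinase, which commits glucose to the cell, was at 8.69, 8.07 and 7.45 on APB and 7.21, 7.62 and 6.98 on PPB. Its difference of -0.80 ± 0.32 was -0.49 without APB dog 1. SLC2A3, the neuronal glucose transporter, differed by -0.45 ± 0.23 without overlap, or by -0.19 without that dog. In fatty acid oxidation 17 of 19 were lower with a median of -0.16. Without APB dog 1 it was 13 of 19 with a median of -0.07, and without PPB dog 2 13 of 19 with -0.09. CPT1A, which gates the entry of fatty acids into mitochondria, was at 8.93, 9.01 and 9.07 on APB and 8.38, 8.76 and 8.10 on PPB, a difference of -0.59 ± 0.21 that kept the diets apart. HADHB, of the mitochondrial trifunctional protein, differed by -0.31 ± 0.16, or by -0.18 without APB dog 1.

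For the lists of this paragraph, the shares over all genes were 60% with the lower PPB mean and 3.76% lower at an unadjusted limma p under 0.05. Fatty acid synthesis and desaturation had 7 of 12 lower with a median of -0.05, or 0.04 without APB dog 1. FADS1, the delta-5 desaturase, was at 7.96, 8.63 and 8.37 on APB and 7.64, 8.30 and 7.64 on PPB, a difference of -0.46 ± 0.21 by its brighter probe set and -0.02 by its dimmer one. Among 16 cholesterol genes 11 were lower, 1 at an unadjusted p under 0.05, with a median of -0.08 that was -0.15 without PPB dog 1 and also without APB dog 2. The lysosomal cholesterol carriers NPC1 and NPC2 had differences of -0.44 ± 0.21 and -0.48 ± 0.18, while the synthetic enzyme HMGCS1 differed by 0.40 ± 0.19. Without APB dog 1 these were -0.28, -0.29 and 0.22. The list of autophagy and lysosome genes had 19 of 23 lower with a median of -0.12, or -0.05 without PPB dog 2.

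Amino acid transport and metabolism gave 14 of 19 genes with the lower PPB mean, 3 at an unadjusted limma p under 0.05 and a median of -0.10. Over all genes these shares were 60% and 3.76%. Without PPB dog 3 it was 10 of 19 with a median of -0.02, and without PPB dog 1 the median was -0.21. SLC38A3, a glutamine transporter, was at 6.37, 6.24 and 6.06 on APB and 6.04, 5.49 and 5.51 on PPB. Its difference was -0.54 ± 0.18, and -0.57 by a second probe set. ATF4, the transcription factor of the amino acid response, was at 11.29, 11.22 and 11.08 on APB and 10.88, 10.84 and 10.93 on PPB, a difference of -0.31 ± 0.12 without overlap. PSAT1, of serine synthesis, differed by -0.37 ± 0.17 with overlap, or by -0.20 without APB dog 1. In the list of sulphur amino acid, one-carbon and glutathione genes 12 of 19 were lower with a median of -0.14, or -0.08 without APB dog 1. GPX3, the secreted glutathione peroxidase, was at 7.85, 7.44 and 7.48 on APB and 7.0, 7.30 and 6.97 on PPB, a difference of -0.50 ± 0.19. Its dimmer probe sets gave -0.95 and -0.07. AHCY, which clears S-adenosylhomocysteine, differed by -0.37 ± 0.16, or by -0.23 without PPB dog 2, and its dimmer probe set gave -0.13.

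Oxidative defence genes were lower in 21 of 22, again by small amounts, with a median of -0.15 and 5 without overlap. Over all genes 60% had the lower PPB mean, and at 7.69% all PPB dogs lay below all APB dogs. The thioredoxin reductase TXNRD1 was at 7.13, 7.69 and 7.09 on APB and 6.68, 7.11 and 6.67 on PPB, a difference of -0.48 ± 0.18, or -0.29 without APB dog 2. TXNIP, the thioredoxin-binding protein that follows glucose supply, differed by -0.51 ± 0.22 with overlap through PPB dog 3, and by -0.33 without PPB dog 2. Without APB dog 1 the median of the list was -0.08.

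In the list of insulin, IGF and mTOR genes 13 of 21 had the lower PPB mean, as 60% of all genes did. The median was -0.03, or -0.12 without PPB dog 1. In that list the IGF-binding protein IGFBP2 was at 6.37, 6.37 and 6.16 on APB and 5.71, 5.92 and 5.72 on PPB. That difference, -0.52 ± 0.19, kept the diets apart, with the nearest dogs at 6.16 on APB and 5.92 on PPB. The retinoid X receptor RXRB was at 6.49, 6.44 and 6.25 on APB and 5.92, 6.04 and 6.13 on PPB, a difference of -0.36 ± 0.11. Of 14 appetite and neuropeptide genes 9 were higher and the median was 0.09, but without APB dog 2 10 of the 14 were lower and the median was -0.08. The neuropeptide Y receptor NPY1R was at 6.13, 5.99 and 6.95 on APB and 6.91, 7.01 and 6.85 on PPB, a difference of 0.57 ± 0.24 with overlap, or 0.86 without APB dog 3. Ceruloplasmin, CP, the copper protein of iron export, was at 9.03, 9.23 and 8.95 on APB and 8.20, 8.62 and 8.85 on PPB, a difference of -0.51 ± 0.18, although its other probe set gave 0.10. Without PPB dog 1 CP differed by -0.33. Glucocorticoid-responsive genes were lower in 14 of 16, again beside 60% of all genes, with none at an unadjusted limma p under 0.05. The kinase SGK1 was at 5.86, 5.87 and 5.00 on APB and 4.04, 6.01 and 4.04 on PPB. The median of that list, -0.20, was -0.04 without APB dog 1. Only 3 members of the list of isoflavone and oestrogen-responsive genes were measured, XBP1, BCL2 and IGFBP4, with differences between -0.18 and 0.01.

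Synaptic vesicle genes had a median of -0.03 over 11 and calcium genes -0.02 over 18. Immediate early genes, which neurons switch on with activity, had the higher PPB mean in 8 of 9, against 1809 of all 4527 genes. Their median was 0.20, with none at an unadjusted limma p under 0.05. Without PPB dog 2 the median was 0.10 and 4 of the 9 were lower, and without APB dog 2 it was 0.31. NR4A1 was at 5.95, 7.06 and 7.15 on APB and 6.65, 7.19 and 7.83 on PPB, a difference of 0.50 ± 0.39 with overlap, or 0.12 without APB dog 1. The sodium channel SCN2A was at 8.15, 8.47 and 8.74 on APB and 8.83, 8.90 and 8.95 on PPB, a difference of 0.44 ± 0.16 without overlap, or 0.29 without that dog. Progranulin, GRN, a lysosomal protein linked to neurodegeneration, was at 6.85, 6.46 and 6.50 on APB and 6.33, 5.94 and 6.13 on PPB, a difference of -0.47 ± 0.16. The growth factor FGF2 differed by 0.43 ± 0.18 and the neuregulin NRG1 by -0.61 ± 0.28, both without overlap, and FGF2 by 0.28 without APB dog 1. Of the larger basic lists, ribosomal proteins had a median of -0.06 over 57 genes, proteasome and ubiquitin genes -0.07 over 41, splicing genes -0.01 over 42, and chromatin genes -0.05 over 24.

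**Figure D4:**
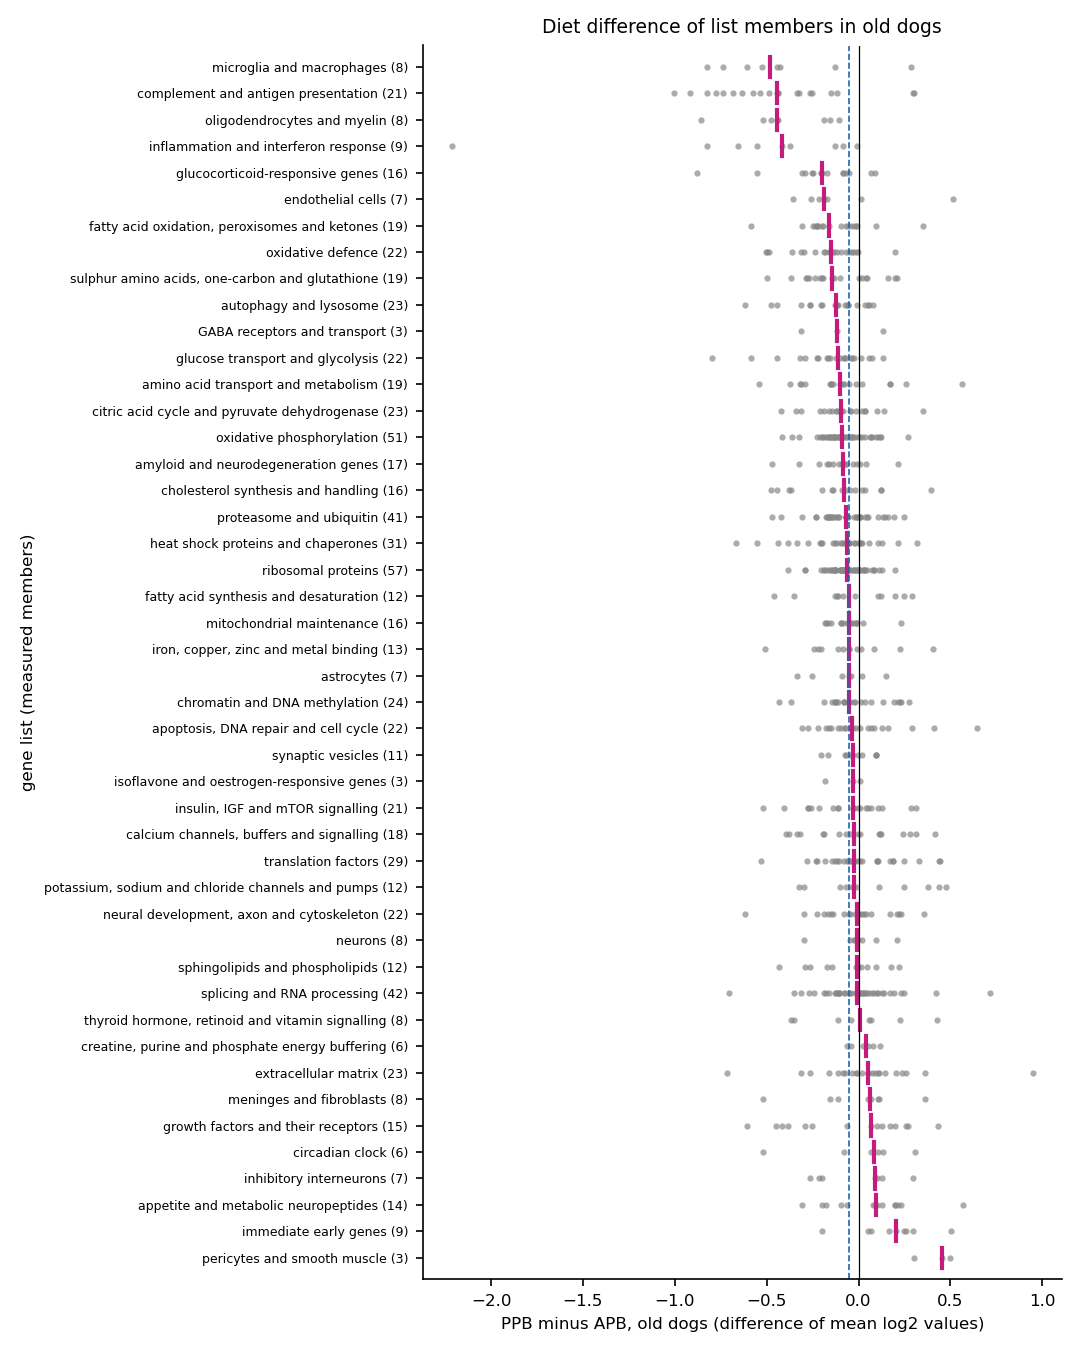
Diet difference in old dogs (horizontal, PPB minus APB in log2 units) of each measured member (grey points) of the lists with at least 3 measured genes, with list medians as pink bars, 0 as a solid line and the median of all genes, -0.05, as a dashed line. Microglia, complement and antigen presentation, myelin, and inflammation lie at -0.41 to -0.48, and most other lists lie close to the dashed line.

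Whether diet acted differently in old than in young dogs was tested as the difference of the diet differences. In limma 0 of 10835 probe sets had an adjusted p under 0.05 (smallest 1.0), and 125 (1.15%) had an unadjusted p under 0.05, a share that was 2.08% without old APB dog 3 and 2.15% without young PPB dog 1. In young dogs alone 0 passed (smallest limma adjusted p = 0.197) and 538 (4.97%) had an unadjusted p under 0.05. The 5 genes with the smallest interaction p follow, a choice that favours unlike diet differences in old and young dogs. DDB1, a DNA repair protein, was 0.22 higher on PPB in old dogs and differed by -0.37 in young dogs. The potassium channel partner KCNIP2 differed by -0.10 in old and -0.63 in young dogs, and the collagen COL1A1 by 0.11 and 0.74. AIFM2, which protects membranes from lipid peroxidation, differed by 0.45, or 0.24 without old APB dog 1, and by -0.41. LOC480601 was at 8.57, 7.56 and 7.10 on APB and 6.67, 6.64 and 6.56 on PPB in old dogs, and at 7.77 to 8.73 in all young dogs. The difference of -1.12 in old dogs stood against 0.25 in young dogs, an interaction of -1.37 ± 0.48 (limma adjusted p = 1.0). Among the immune genes, PSMB9 differed by -0.07, TAP1 by -0.04 and TLR4 by -0.36 between the diets in young dogs, and the interactions did not pass. Young PPB dog 3 had the largest actin 3' to 5' difference of the 12 arrays, 1.68, and the lowest estimated array weight, 0.25. At the second KCNIP2 probe set it was at 6.87, against 8.06 and 8.14 in the other young PPB dogs. The young list medians were not refitted without it.

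**Figure D5:**
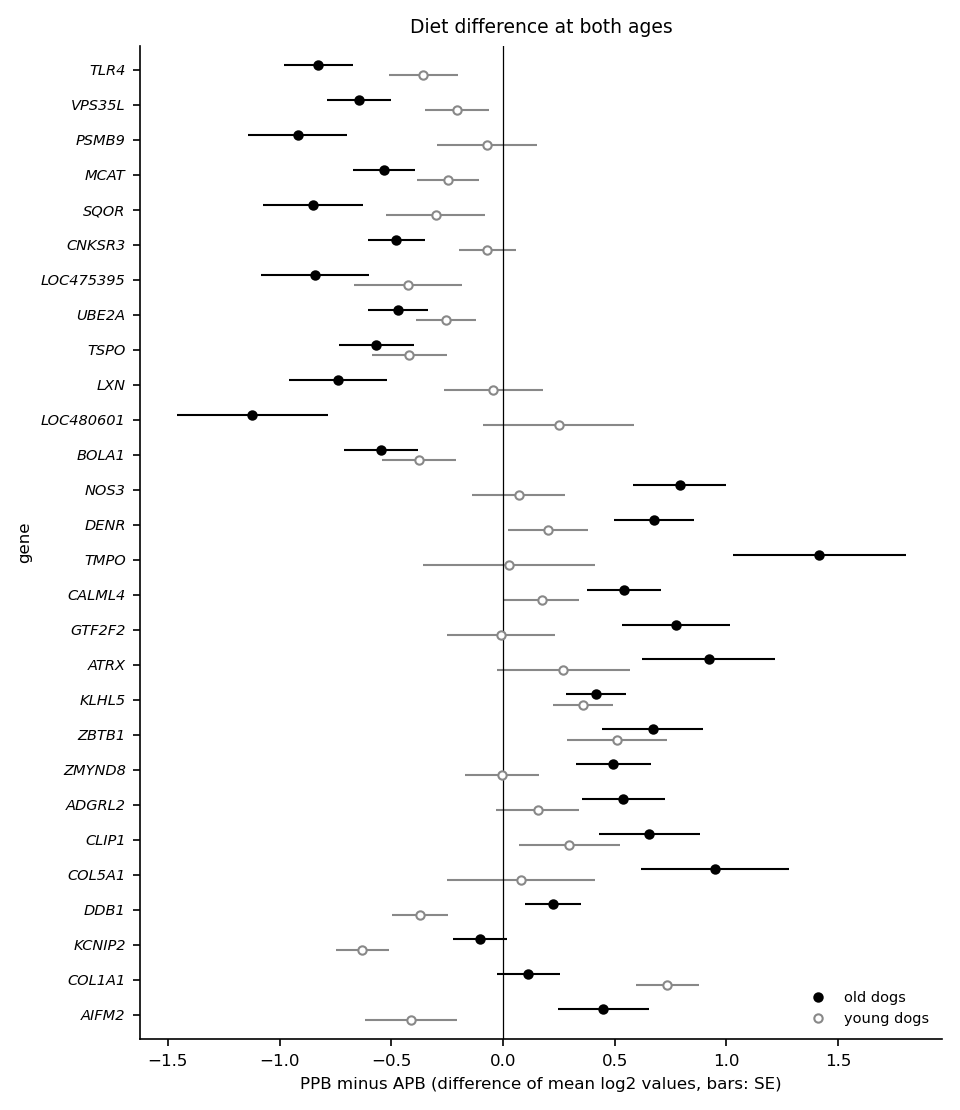
Diet difference (horizontal, PPB minus APB in log2 units, with SE) in old dogs (black) and young dogs (open grey) for the 24 genes with the smallest p in old dogs and the further 4 with the smallest interaction p. The first 24 were chosen in old dogs and lie farther from 0 there by that choice; LOC480601, at -1.12 and 0.25, has opposite signs at the 2 ages.

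The probe set called without the intensity filter, 1597308_s_at, has no gene symbol. It was at 4.79, 4.73 and 4.76 on APB and 4.39, 4.37 and 4.33 on PPB in old dogs, and at 4.32 to 4.38 in young dogs of both diets. The old APB dogs stood above the other 9 dogs, and within each group the dogs agreed closely. Its difference of -0.39 had a limma adjusted p of 0.00129 when all probe sets were fitted, the interaction one of 0.0438, and neither passed with the filter, where the moderation of variances rests on other probe sets. A level this close to the intensity minimum makes the size of its change uncertain.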

How the data were processed

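RNA of the cerebral cortex was measured on a canine Affymetrix expression array, 1 array per dog; per the labels' protocols Trizol was used for extraction and a biotin-labelled target was made by 3' amplification. The authors deposited log2 values, made with GCRMA per the submitters' processing notes (version not given in the sources used here), which correct for background, normalize and summarise probes into probe sets. They carry no detection calls, and folds of dim probe sets may be understated. Nothing was normalized again. Arrays have no read depth; their number limits the precision.

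Of 23836 non-control probe sets (77 controls left out), 10835 reached log2 4 on 3 or more of 12 arrays and were tested. The fit used limma 3.58.1 under R 4.3.3; it gave each of the 4 groups its own mean and had 11.0 total degrees of freedom; contrasts were two-sided and adjusted by Benjamini-Hochberg over all tested probe sets, at 0.05. The procedure was tested on simulated data. The array's annotation gave 10549 probe sets 1 symbol, 138 several and 13149 none; 10046 matched the reference gene table (UU_Cfam_GSD_1.0), used for names and neighbours. A gene is its brightest tested probe set by mean over 12 arrays (4527 genes, 1228 with several). Named were the 12 genes per direction with the smallest p, since none passed, the 5 with the smallest interaction p and up to 3 members per list; a further 12 genes (B2M, CCL2, CSF1R, DLA88, GLUL, HLA-DRB1, IRF9, LYZ, MBP, MX1, PSMB8 and TAP2) and the probe set without symbol were chosen after their values were seen. The members and lists were chosen with earlier results of these data known, so list counts are descriptions.

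Dog numbers come from the labels. Old dogs' array files are numbered 339 to 344 in the order APB, PPB by dog number, so same-numbered dogs are adjacent. Deviations of same-numbered old dogs correlated at 0.51, 0.31 and 0.16, and of different numbers across diets at -0.43 to 0.19. In young dogs the same-numbered values were -0.37, 0.39 and -0.04. The labels do not say that the numbers pair dogs, so the number served as a block only in alternative fits. Alternatives were other filters, normalization, centring, fits on the 6 old arrays, variance settings, array weights, the block, other probe set choices and leaving out each dog. Leaving out both old dogs numbered 1 was added after seeing the data.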

Additional observations from a re-analysis of the deposited data

How the results depend on the processing

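The diet difference in old dogs had 0 calls in limma in each of the 26 alternatives except the fit without a filter on dim probe sets, which called 1 probe set (adjusted p = 0.00129). Its interaction with age was not computed in the 3 alternatives fitted or filtered on the old arrays alone. In the others it had 0 calls, except in the fit without a filter on dim probe sets, which called 1 (limma adjusted p = 0.0438). The smallest limma adjusted p among the fits that left out 1 dog was 0.0637 for old dogs, with counts of 0 to 0. The share at an unadjusted p under 0.05, 4.63% in old dogs, was 7.31% with array weights, 7.62% with a replicate block over 12 arrays, 11.6% with a replicate block over the 6 old arrays, and 2.11% to 8.43% with 1 dog left out. For the interaction, 1.15%, it was 2.53% with array weights and 0.895% to 2.15% with 1 dog left out. The share of lower values among those probe sets, 61.6%, ran from 42.8% (without PPB dog 1) to 68.4% (without PPB dog 2) with 1 dog left out. It was 40.2% with a replicate block over the 6 old arrays, 46.6% with one over 12 arrays, 44.2% with centred arrays and 76.3% with the mean of a gene's probe sets; the cause was not tested. The block changed no other call. Of 2308 refitted values of named genes 2297 kept their sign and 0 passed. Of the 11 of opposite sign, 1 was IGFBP4 with quantile normalization (-0.0088), and 3 came without both dogs numbered 1: CCL2 (0.10), GLUL (0.037) and LOC609402 (-0.068). The other 7 came with 1 dog left out, over which the differences ran from -0.11 to 0.13 for BCL2, -0.089 to 0.61 for TAGLN, -0.90 to 0.038 for CCL2, -0.64 to 0.0036 for MX1, -0.33 to 0.15 for TAP2 and -0.66 to 1.07 for LOC609402. With 3 dogs a group, half-widths of the 95% interval had a median of 0.43, and smaller differences could not be resolved.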
